A study of Homo sapiens with 6 samples.

Results

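The genes of antigen presentation by MHC class I were examined by RNA-seq in PC9-BrM3 cells with AKR1B10 silenced or not. PC9 is a human lung adenocarcinoma line, and PC9-BrM3 a subline of it with a tendency to form brain metastases. The 9 genes were taken by name from the deposited table of 58735 genes and comprised the heavy chains HLA-B, HLA-C, HLA-E and HLA-F, the light chain B2M, the peptide transporter genes TAP1 and TAP2, the loading factor TAPBP, and the transcriptional regulator NLRC5. Each gene name gave 1 row. There were 3 libraries of cells carrying a lentiviral shRNA against AKR1B10 (BrM3-shAKR1B10) and 3 libraries of cells carrying a negative control shRNA (BrM3-shNC, labelled WT for genotype), and both groups were grown in the same routine serum-containing medium with no drug or cytokine named. A single shRNA was used, so that its effects apart from those on AKR1B10 cannot be told apart from silencing, and whether the replicates were separate cultures is not given in the sources used here, so p-values measure the spread between these samples, which may be technical.

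MHC class I molecules display peptides from inside the cell to CD8+ T cells. Proteasomes cut the peptides, the TAP1 and TAP2 heterodimer pumps them into the endoplasmic reticulum, and TAPBP (tapasin) holds an empty heavy chain paired with B2M at the transporter until a peptide has bound. NLRC5 is a coactivator of the heavy chain, B2M and TAP1 genes that works through the RFX and NFY factors bound at their promoters, and interferon gamma raises most genes of the pathway, in part through IRF1. HLA-E presents peptides cut from the leader sequences of other class I chains and is recognised by the NKG2A receptor of natural killer cells.

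TAP1, TAP2 and NLRC5 fell in BrM3-shAKR1B10, to 63.7%, 72.5% and 63.5% of the mean in BrM3-shNC. HLA-C and B2M fell less, to 85.8% and 86.8%. HLA-E rose to 110.1%. TAPBP did not pass the test, with a mean at 106.3% of the control mean. HLA-B and HLA-F lay under a mean of 1 FPKM over the 6 libraries and were not tested.

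The genes lie at the following places in GRCh38. HLA-F (plus strand, 29722775 to 29738528), HLA-E (plus, 30489467 to 30494205), HLA-C (minus, 31268749 to 31272130), HLA-B (minus, 31269491 to 31357188), TAP2 (minus, 32821833 to 32838780), TAP1 (minus, 32845209 to 32853978) and TAPBP (minus, 33299694 to 33314387) are on chromosome 6. B2M (plus, 44711487 to 44718877) is on chromosome 15 and NLRC5 (plus, 56989485 to 57083531) on chromosome 16. The 2 TAP genes are interleaved with the immunoproteasome genes PSMB8 and PSMB9, and the main start sites of TAP1 and PSMB9 face away from each other 488 bases apart.

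Promoters are shown for HLA-C, B2M, TAP1, TAP2 and TAPBP, the tested members that had one among the RefSeq windows used here (GRCh38.p14, from 250 bases before to 50 after the start site). The windows of the remaining genes were searched but are not shown, and HLA-E and NLRC5 had none among them. Capitals mark matches to the motifs described after the sequences, and each window is written 5′ to 3′ on the gene's own strand.
HLA-C (chr6:31272043-31272342, minus strand): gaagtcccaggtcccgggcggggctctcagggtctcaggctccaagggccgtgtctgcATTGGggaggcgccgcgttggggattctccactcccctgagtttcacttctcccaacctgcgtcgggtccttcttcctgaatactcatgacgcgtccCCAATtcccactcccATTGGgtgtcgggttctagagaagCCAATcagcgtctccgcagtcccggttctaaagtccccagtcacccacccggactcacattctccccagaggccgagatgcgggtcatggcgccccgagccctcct
B2M (chr15:44711267-44711566, plus strand): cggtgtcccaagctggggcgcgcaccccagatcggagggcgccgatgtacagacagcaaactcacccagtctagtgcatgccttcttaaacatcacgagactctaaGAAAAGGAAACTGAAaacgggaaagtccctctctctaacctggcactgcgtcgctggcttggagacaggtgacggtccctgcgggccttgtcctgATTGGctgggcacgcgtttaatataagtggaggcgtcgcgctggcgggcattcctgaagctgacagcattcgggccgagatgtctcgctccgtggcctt
TAP1 (chr6:32853655-32853954, minus strand): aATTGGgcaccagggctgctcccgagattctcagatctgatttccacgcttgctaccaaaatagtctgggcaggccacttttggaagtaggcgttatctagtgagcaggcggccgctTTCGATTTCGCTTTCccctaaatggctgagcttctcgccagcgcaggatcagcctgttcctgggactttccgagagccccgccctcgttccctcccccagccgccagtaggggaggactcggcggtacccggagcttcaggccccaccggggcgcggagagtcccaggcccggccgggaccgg
TAP2 (chr6:32838690-32838989, minus strand): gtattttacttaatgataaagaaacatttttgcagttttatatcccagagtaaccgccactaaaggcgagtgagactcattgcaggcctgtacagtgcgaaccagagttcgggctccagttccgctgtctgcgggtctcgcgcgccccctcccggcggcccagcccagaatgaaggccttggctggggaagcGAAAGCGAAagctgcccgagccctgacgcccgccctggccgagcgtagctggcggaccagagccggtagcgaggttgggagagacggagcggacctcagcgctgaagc
TAPBP (chr6:33314029-33314328, minus strand): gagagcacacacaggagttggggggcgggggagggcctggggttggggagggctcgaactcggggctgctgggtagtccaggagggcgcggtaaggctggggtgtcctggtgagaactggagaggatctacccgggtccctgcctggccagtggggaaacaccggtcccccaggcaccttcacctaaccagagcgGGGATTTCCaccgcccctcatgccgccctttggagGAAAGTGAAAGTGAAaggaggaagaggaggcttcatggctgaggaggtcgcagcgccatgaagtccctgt

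The motifs were searched on both strands with no mismatch. They were the CCAAT box CCAAT to which NFY binds, the cAMP response element TGACGTCA, the core of the interferon response element GAAANNGAA, the gamma activated sequence TTCNNNGAA and a kappaB-type site GGGANTTCC. The interferon response core was present in TAP1 (2 overlapping matches, the first from position -133 relative to the start site), TAP2 (1 match, from -58), TAPBP (2 overlapping matches, the first from -20), B2M (2 overlapping matches, the first from -144) and HLA-F (1 match, from -155). It was found in 8.11% of all 35116 promoter windows. Thus genes that fell (TAP1, TAP2, B2M) and the gene that did not pass the test (TAPBP) shared this match. HLA-C also fell and held no match, which says only that these exact letters were not in its window.

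The CCAAT box was found 4 times in HLA-C, 3 times in HLA-B, 2 times in HLA-F and 1 time each in B2M, TAP1 and PSMB9, and in 34.6% of all windows. The matches of TAP1 (from -249) and PSMB9 (from -243) are the same bases, read from the overlapping windows of the 2 genes. In HLA-C, HLA-B and HLA-F it stood at closely similar places, from -56 (HLA-B and HLA-C) or -57 (HLA-F) for the match nearest the start site. A kappaB-type site was present in TAPBP (1.85% of all windows), and a gamma activated sequence in the window of a second, inner start site of TAP1 (7.66% of all windows). No window of these genes held the cAMP response element in full (1.85% of all windows held it), which says only that those letters were not there. The same limit holds for every motif, the kappaB-type site included, as no mismatch was allowed and variant letters were not searched.

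The values are FPKM, fragments per kilobase of gene scaled to library size, as deposited, and fold changes are differences of log2(FPKM + 0.1), a scale that understates the change of low genes. Genes that averaged at least 1 FPKM over the 6 libraries were tested, 13150 in all, by limma with Benjamini-Hochberg adjustment over all of them. A gene passed at an adjusted p under 0.05, and was called where its absolute log2 fold change was also above 0.5. Libraries held 16964504 to 18709028 reads on genes. AKR1B10, the targeted aldo-keto reductase, had 108.2, 107.2 and 110.2 FPKM in BrM3-shAKR1B10 against 798.7, 775.0 and 772.0 in BrM3-shNC, and fell to 13.9% of the control mean (log2 fold change -2.85, limma adjusted p = 1.6e-07).

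Markers were read before the results. Of 8 epithelial markers, 6 reached a mean of 1 FPKM over the 6 libraries, and the lung lineage genes NKX2-1 and SFTPB did not. The summed level of the 8 was 3167 to 3253 FPKM in BrM3-shAKR1B10 and 2986 to 3348 in BrM3-shNC. None of the 10 leukocyte markers reached a mean of 1 FPKM, and 2 of them were at 0 in every library. The sum of the 10 was 1.66 to 1.92 in BrM3-shAKR1B10 and 2.004 to 2.65 in BrM3-shNC. Among 5 fibroblast markers 3 were at 0 throughout and COL1A1 alone was above 1 FPKM, with sums of 1.20 to 1.35 against 2.03 to 2.05 FPKM. COL1A1 was called lower (log2 fold change -0.67, limma adjusted p = 0.0032), and of the 6 epithelial markers tested EPCAM (-0.24, limma adjusted p = 0.0097) and KRT7 (-0.19, 0.0207) were lower and CDH1 (0.16, 0.0098) higher. The part of these levels in the class I values was not tested. In RNA from whole cultures, fewer cells of a kind and less RNA per cell cannot be told apart.

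The transporter was examined first. TAP1, whose product is the first chain of the pump, had 3.24, 3.14 and 3.61 FPKM in BrM3-shAKR1B10 and 5.22, 5.07 and 5.39 in BrM3-shNC. Every silenced library lay below every control library. TAP1 fell by 0.64 on the log2 scale (SE 0.0672, 95% interval -0.80 to -0.48, limma adjusted p = 5.5e-04), and it was called under each of 14 alternative fits in which it was tested.

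TAP2, which encodes the partner chain, had 3.03, 3.37 and 3.46 FPKM in BrM3-shAKR1B10 and 4.43, 4.53 and 4.65 in BrM3-shNC. The groups again did not overlap. The fold change was -0.45 (SE 0.0656, 95% interval -0.61 to -0.30, limma adjusted p = 0.0021), past the test but under the size set for a call. The count of TAP2 is less certain than that of TAP1, since 2064 exon bases of TAP2, 32.3% of its exon length, are shared on the same strand with the overlapping gene AL669918.1, which is listed at 0 in all 6 libraries. Of the 150-base windows along the principal coding transcript of TAP2, 79.4% also occur in transcripts of another gene, against 0 for each of the other members.

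The fall was larger in TAP1 than in TAP2 by mean. The ratio of TAP1 to TAP2 was 1.07, 0.930 and 1.04 in BrM3-shAKR1B10 and 1.18, 1.12 and 1.16 in BrM3-shNC, or 1.01 ± 0.0745 against 1.15 ± 0.0298 (SD, n = 3 libraries each). The ratios did not overlap between groups (log2 difference -0.19, two-sided exact permutation p = 0.10), and 0.10 is the smallest p that this permutation test can give with 3 libraries against 3, so no ratio could pass 0.05 by it. TAP1 also shares 456 exon bases with PSMB8-AS1 on the opposite strand, an RNA at 0.284 to 0.462 FPKM in BrM3-shAKR1B10 and 0.515 to 0.815 in BrM3-shNC. Whether counting used the strand is not given in the sources used here, and the part of those reads in the TAP1 values was not tested.

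**Figure D1:**
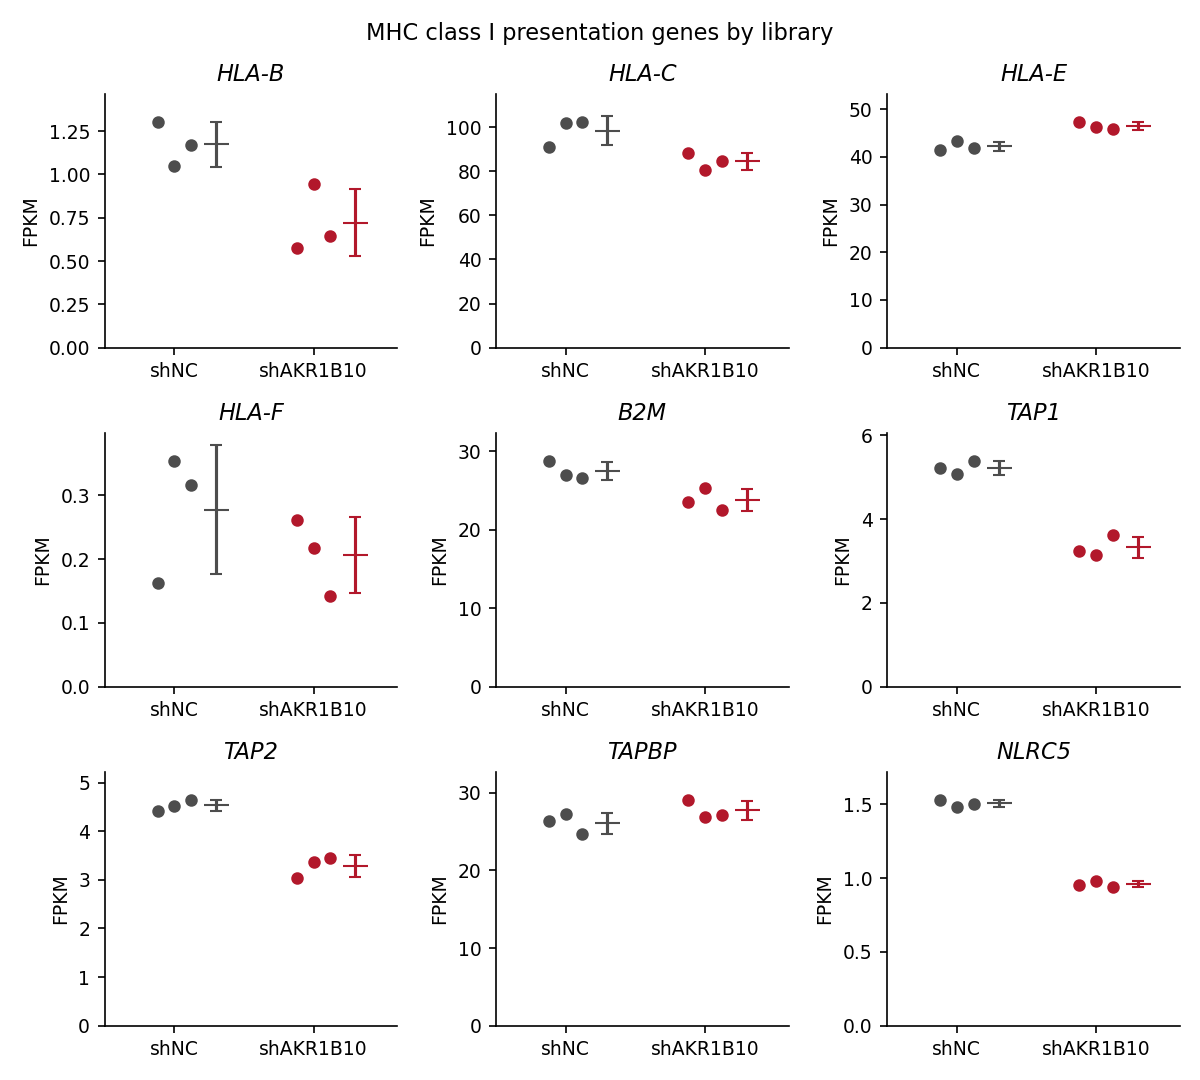
FPKM of the 9 class I genes by library, with points for the 3 BrM3-shNC (grey) and 3 BrM3-shAKR1B10 (red) libraries and the mean ± SD beside them; each panel has its own vertical axis from 0. TAP1, TAP2, NLRC5, HLA-B, HLA-C and B2M lie lower in every silenced library, HLA-E lies higher, and TAPBP and HLA-F overlap.

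NLRC5, the class I coactivator, was low but even among replicates. It had 0.955, 0.979 and 0.938 FPKM in BrM3-shAKR1B10 and 1.53, 1.48 and 1.504 in BrM3-shNC, from 206 to 348 reads per library. No library of one group came near the other group. NLRC5 fell by 0.60 (SE 0.127, 95% interval -0.91 to -0.30, limma adjusted p = 0.0094). It passed the filter on low values through the control group alone, since its mean in BrM3-shAKR1B10 was under 1 FPKM. With a pseudocount of 1 its fold change was -0.36, no longer a call, with a limma adjusted p of 0.0070.

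The heavy chains did not move together. HLA-C, the most abundant of the 4 listed here, had 88.3, 80.4 and 84.6 FPKM in BrM3-shAKR1B10 and 90.9, 101.8 and 102.4 in BrM3-shNC. The groups did not overlap, although silenced replicate 1 and control replicate 1 were close. Control replicate 1 also stood apart from the other controls in its reads, with a mean chi-square per gene of 4.875 and 5.42. That value was 2.619 between control replicates 2 and 3, and 2.453 to 2.703 among silenced libraries. HLA-C fell by 0.22 (SE 0.0585, 95% interval -0.36 to -0.08, limma adjusted p = 0.0234). The pass was lost in 8 of 15 alternative fits, among them those without BrM3-shAKR1B10 replicate 2 (limma adjusted p = 0.0737) or 3 (0.0634) and without BrM3-shNC replicate 2 (0.0725) or 3 (0.0693), while the fold change stayed between -0.28 and -0.16.

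HLA-E, the ligand of NKG2A, went the other way. It had 47.4, 46.2 and 45.9 FPKM in BrM3-shAKR1B10 and 41.4, 43.3 and 42.0 in BrM3-shNC. All silenced libraries were above all control libraries. HLA-E rose by 0.14 (SE 0.0315, 95% interval 0.06 to 0.21, limma adjusted p = 0.0131), and it passed in all 15 alternative fits, with a fold change of 0.12 to 0.19.

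HLA-B was detected at a low level, from 31 to 73 reads per library. It had 0.575, 0.944 and 0.647 FPKM in BrM3-shAKR1B10 and 1.30, 1.05 and 1.17 in BrM3-shNC. The groups did not overlap (two-sided exact permutation p = 0.10, the smallest possible). With no filter on low values, the fit gave a log2 fold change of -0.65 (95% interval -1.17 to -0.14) that did not pass (limma adjusted p = 0.103). Of the HLA-B exon bases, 542 are shared with the pseudogene AL671883.2 on the opposite strand and 35 with HLA-C on the same strand.

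HLA-F rested on 11 to 26 reads per library. The values were 0.261, 0.217 and 0.143 FPKM in BrM3-shAKR1B10 and 0.163, 0.354 and 0.315 in BrM3-shNC. They overlapped (two-sided exact permutation p = 0.3), and a change was not detectable at this depth; 3 reads correspond to about 0.0377 to 0.0409 FPKM for this gene. HLA-F shares 1236 exon bases, 28.5% of its length, with genes on the opposite strand.

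Class I heavy chains are alike in sequence and vary between people, so reads can be split among them or lost where the alleles of a line differ from the reference. Of 50-base windows of the principal transcripts, 6.79% in HLA-C, 5.13% in HLA-E, 2.54% in HLA-B and 1.70% in HLA-F occurred in transcripts of another gene, and none of 150 bases did. How the alleles of PC9-BrM3 match the reference was not tested.

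With HLA-C lower and HLA-E higher, the share of each in the summed FPKM of the 4 heavy chains shifted. HLA-E took 34.7%, 36.2% and 34.9% in BrM3-shAKR1B10 and 31.0%, 29.5% and 28.8% in BrM3-shNC, or 35.3 ± 0.783% against 29.8 ± 1.12% (SD, n = 3 libraries each). The difference was 5.51 percentage points with no overlap (two-sided exact permutation p = 0.10, the smallest possible), and 4.75 points when lengths of the principal coding transcripts were used. HLA-C took 64.0 ± 0.956% against 69.2 ± 1.17%. HLA-B and HLA-F made up under 1% each.

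The sum of the 4 heavy chains was 131.8 ± 4.39 FPKM (SD) in BrM3-shAKR1B10 and 142.0 ± 7.14 in BrM3-shNC (n = 3 libraries each), values that overlapped (two-sided exact permutation p = 0.2). Other heavy chains are not part of this sum.

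B2M, the light chain that every classical heavy chain needs to reach the surface, had 23.6, 25.3 and 22.5 FPKM in BrM3-shAKR1B10 and 28.8, 27.0 and 26.5 in BrM3-shNC. The groups did not overlap. B2M fell by 0.20 (SE 0.0543, 95% interval -0.33 to -0.08, limma adjusted p = 0.0228). It did not pass without BrM3-shAKR1B10 replicate 1 (limma adjusted p = 0.0684) or 3 (0.0680) or without BrM3-shNC replicate 1 (0.0570), nor with quantile scaling (0.105) or with no filter (0.0518).

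B2M was next set against the heavy chains. The ratio of B2M to the summed 4 heavy chains was 0.173, 0.198 and 0.172 in BrM3-shAKR1B10 and 0.215, 0.184 and 0.182 in BrM3-shNC. The ranges overlapped (log2 difference -0.10, two-sided exact permutation p = 0.5). With single libraries left out, the log2 difference ran from -0.17 without BrM3-shAKR1B10 replicate 2 (exact permutation p = 0.3) to -0.02 without BrM3-shNC replicate 1 (p = 1).

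**Figure D2:**
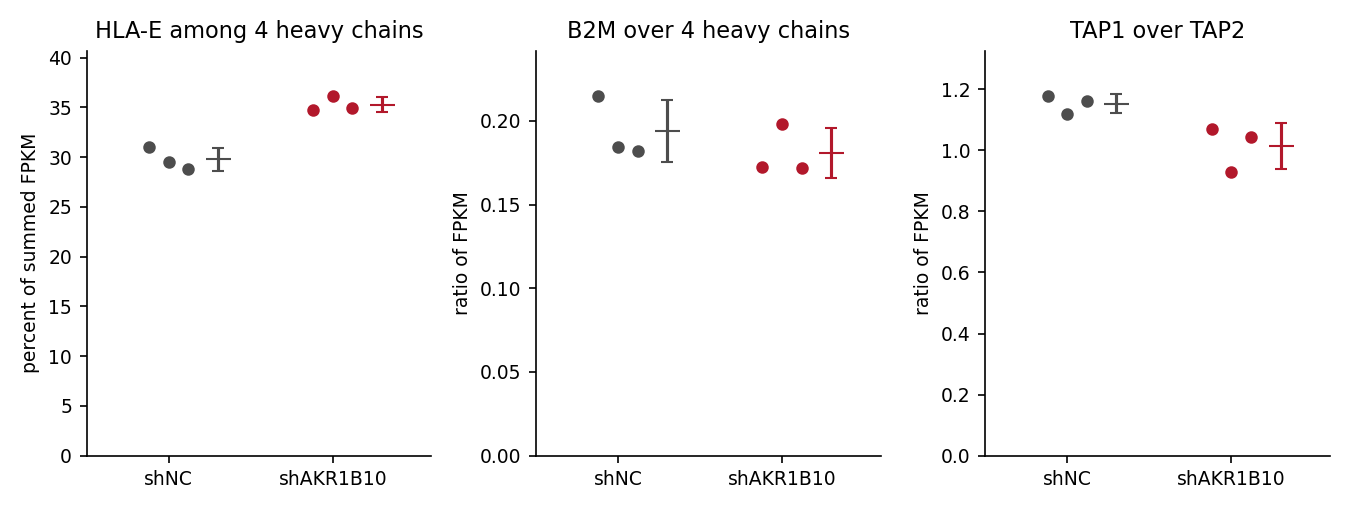
Ratios among class I genes by library, with the 3 points of each group and the mean ± SD (left, percent of the summed FPKM of HLA-B, HLA-C, HLA-E and HLA-F taken by HLA-E; middle, B2M over that sum; right, TAP1 over TAP2). The share of HLA-E is higher and the TAP1 to TAP2 ratio lower in every silenced library, and the B2M ratio overlaps.

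TAPBP, the bridge between transporter and heavy chain, had 29.1, 26.9 and 27.1 FPKM in BrM3-shAKR1B10 and 26.4, 27.3 and 24.6 in BrM3-shNC. The groups overlapped. The fold change was 0.09 (95% interval -0.03 to 0.21, limma adjusted p = 0.212), an interval that leaves out a fall of the size seen in TAP1 or TAP2. On reads recovered from the FPKM and fitted with limma's voom, TAPBP rose by 0.14 (limma adjusted p = 0.0250).

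By level per length, the order in BrM3-shNC was HLA-C (98.4 ± 6.47 FPKM), HLA-E (42.2 ± 0.947), B2M (27.4 ± 1.17), TAPBP (26.1 ± 1.34), TAP1 (5.23 ± 0.162), TAP2 (4.53 ± 0.111), NLRC5 (1.51 ± 0.0233), HLA-B (1.17 ± 0.129) and HLA-F (SD, n = 3 libraries each). B2M and TAPBP overlapped in the control libraries. In BrM3-shAKR1B10 the order was HLA-C (84.4 ± 3.95), HLA-E (46.5 ± 0.796), TAPBP (27.7 ± 1.21), B2M (23.8 ± 1.42), TAP1 (3.33 ± 0.252), TAP2 (3.29 ± 0.227), NLRC5 (0.957 ± 0.0209), HLA-B (0.722 ± 0.196) and HLA-F. There B2M lay below TAPBP in every library, TAP1 and TAP2 overlapped, and so did NLRC5 and HLA-B.

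This order depends on the length used. The deposited lengths are the union of all annotated exons, which for B2M is 3.57 times its principal coding transcript, for TAPBP 2.68 times and for HLA-E 1.14 times. With principal transcript lengths the means over all 6 libraries became 149 FPKM for HLA-C, 91.3 for B2M, 72.0 for TAPBP, 50.7 for HLA-E, 10.0 for TAP2 and 6.95 for TAP1. B2M then stood next to HLA-C, above TAPBP and HLA-E, and TAP2 above TAP1. The fold changes between groups do not depend on the length beyond the pseudocount.

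Of the 9 genes, 7 were tested. The 2 called genes, TAP1 and NLRC5, were lower, where 7.45% of all genes tested were called lower and 5.83% called higher. At an adjusted p alone 5 were lower and 1 higher, against 23.1% and 19.4% of all genes tested. Groups did not overlap in 5 lower and 1 higher of the 7, where 29.2% of all genes tested lay lower without overlap and 25.5% higher. The median log2 fold change was -0.22 over the 7 genes and -0.01 over all 13150. These 7 are not all members, and NLRC5 entered through the group in which it was high.

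**Figure D3:**
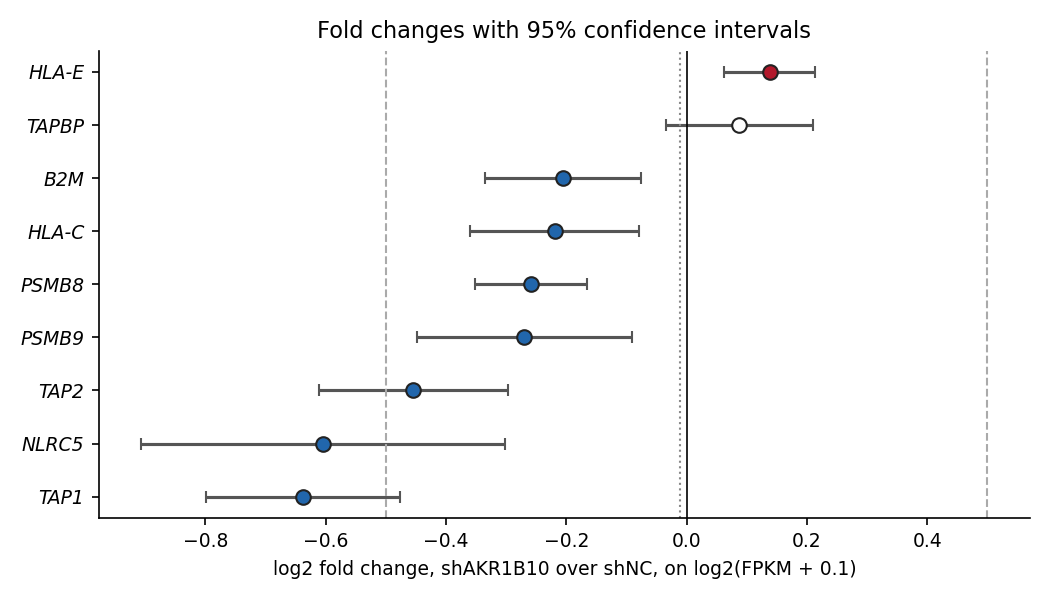
Log2 fold change (BrM3-shAKR1B10 over BrM3-shNC, on log2(FPKM + 0.1)) of the 7 tested class I genes, PSMB8 and PSMB9, with 95% confidence intervals; blue and red mark genes lower and higher past an adjusted p of 0.05, white those that did not pass. Dashed lines stand at 0.5 in either direction and the dotted line at the median of all genes tested; TAP1, NLRC5 and TAP2 lie lowest and HLA-E highest.

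Most of the members share a stretch of chromosome 6. The other genes between HLA-F and TAPBP were set beside them, 304 in the table and 94 tested. Of these 94, 26 were lower and 20 higher at an adjusted p under 0.05, shares close to the 23.1% and 19.4% of all genes tested, with a median log2 fold change of -0.01. The 2 members on other chromosomes, B2M and NLRC5, both fell.

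The remaining genes of the pathway were read by list. The immunoproteasome is the form of the proteasome that cytokines induce. PSMB8, a catalytic subunit next to TAP1, had 12.6, 12.4 and 12.6 FPKM in BrM3-shAKR1B10 against 14.4, 15.5 and 15.1 in BrM3-shNC and fell by 0.26 (limma adjusted p = 0.0025). PSMB9, the catalytic subunit that shares its upstream region with TAP1, had 2.30, 2.29 and 2.06 FPKM against 2.71, 2.69 and 2.66 FPKM and fell by 0.27 (limma adjusted p = 0.0270). The third inducible subunit, PSMB10, encoded on another chromosome, had 4.52, 4.18 and 3.62 FPKM against 2.94, 3.22 and 3.31 FPKM and rose by 0.37 (limma adjusted p = 0.0207).

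Across the 5 immunoproteasome genes, 3 were lower and 1 was higher (23.1% and 19.4% of all genes tested), and 1 did not pass. PSMB9 lost its pass under 7 of 14 alternative fits, among them those without BrM3-shAKR1B10 replicate 3 (limma adjusted p = 0.0695) and without BrM3-shNC replicate 1 (0.0707), 2 (0.0724) or 3 (0.0645). None of the 3 constitutive catalytic subunits that these replace passed, with fold changes of -0.08 for both PSMB5 (limma adjusted p = 0.285) and PSMB6 (0.109).

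Among 10 genes of peptide trimming and folding in the endoplasmic reticulum, 5 were lower and 3 higher (23.1% and 19.4% of all genes tested), with a median log2 fold change of -0.06. CALR, the lectin chaperone calreticulin of the loading complex, had 189.8, 182.4 and 193.0 FPKM in BrM3-shAKR1B10 and 253.2, 257.0 and 265.2 in BrM3-shNC and fell by 0.46 (limma adjusted p = 1.5e-04). TAPBPL (TAPBPR), a relative of tapasin that edits peptides outside the loading complex, had 5.41, 5.39 and 5.47 FPKM against 3.38, 3.82 and 3.52 FPKM. It rose by 0.59 (limma adjusted p = 4.3e-04) and was the 1 gene of the lists called higher. With a pseudocount of 1 its fold change was 0.49, under the size of a call. Of these 3 loading genes, CALR was thus lower, TAPBPL higher and TAPBP did not pass.

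Of 5 tested cytosolic peptidases 2 were lower and 0 higher (23.1% and 19.4% of all genes tested). TPP2, which trims long peptides, fell by 0.31 (limma adjusted p = 0.0014), and THOP1, which destroys class I peptides, was at -0.24 without passing (limma adjusted p = 0.0730). Of 8 tested class I-like genes 3 were lower and 1 higher (23.1% and 19.4% of all genes tested). MICB, a ligand of the NKG2D receptor, had 4.15, 3.84 and 4.21 FPKM in BrM3-shAKR1B10 and 5.34, 5.94 and 5.62 in BrM3-shNC and fell by 0.46 (limma adjusted p = 0.0015). ULBP3, another NKG2D ligand, was at 0.32 with overlapping groups (limma adjusted p = 0.381). MICA, the closest relative of MICB and a ligand of the same receptor, went the other way and rose by 0.22 (limma adjusted p = 0.0149).

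The factors that act at class I promoters included 3 called genes, all lower, of 14 tested, where 7.45% of all genes tested were called lower. NFYA, the subunit of the CCAAT-binding factor NFY that contacts the box marked in the sequences, had 13.3, 13.1 and 13.3 FPKM in BrM3-shAKR1B10 and 20.3, 19.6 and 19.9 in BrM3-shNC and fell by 0.59 (limma adjusted p = 4.1e-05). ATF1, a binder of cAMP response elements, fell by 0.53 (limma adjusted p = 3.2e-04). Its fold change was under the size of a call in 4 of 15 alternative fits, at -0.48 with a pseudocount of 1, -0.495 with TPM scaling, -0.487 with voom and -0.499 without BrM3-shAKR1B10 replicate 3. EZH2, the methyltransferase of the repressive complex PRC2, had 22.4, 25.2 and 24.4 FPKM against 37.3, 37.6 and 37.4 FPKM and fell by 0.64 (limma adjusted p = 1.3e-04).

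In all 6 of these 14 factors were lower and 0 higher at an adjusted p alone (23.1% and 19.4% of all genes tested), with a median log2 fold change of -0.11. The other 3 were EED (-0.38, limma adjusted p = 0.0010) and SUZ12 (-0.28, limma adjusted p = 0.0136), which are partners of EZH2 in PRC2, and IRF2 (-0.46, limma adjusted p = 0.0049), a factor of the interferon response element. The list thus holds activators and repressors of class I genes, and members of both kinds fell. IRF1, the main inducer at that element, lay at 0.699 ± 0.170 FPKM in BrM3-shAKR1B10 and 0.750 ± 0.104 in BrM3-shNC (SD, n = 3 libraries each), under the filter and with overlapping groups.

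Of 9 tested interferon gamma signaling genes 0 were lower and 2 higher, beside 23.1% lower and 19.4% higher among all genes tested, and their median log2 fold change was 0.09. SOCS3, a feedback inhibitor of the pathway, rose by 0.40 (limma adjusted p = 0.0302), and STAT2, which acts in the response to type I interferon, rose by 0.22 (limma adjusted p = 0.0258). JAK2, SOCS1 and GBP1 of this list lay under the filter. Mean JAK2 was 0.579 FPKM in BrM3-shAKR1B10 and 0.289 in BrM3-shNC, without overlap. With no filter its log2 fold change of 0.80 did not pass (limma adjusted p = 0.0868). SOCS1 overlapped (0.239 against 0.252 FPKM), and GBP1 (0.0601 against 0.0146) rested on 16 and 4 reads in all.

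Class II genes, which mark professional antigen presenting cells, were mostly silent, with 5 of 13 at 0 in every library and 2 tested. HLA-DMA, a class II peptide editor, rose by 0.38 (limma adjusted p = 0.0291), and HLA-DOB was at -0.56 without passing (limma adjusted p = 0.127). HLA-DOB was tested through the control group alone, since its mean was 0.975 FPKM in BrM3-shAKR1B10 and 1.46 in BrM3-shNC.

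Of 8 tested genes that act on the turnover or accessibility of surface class I molecules, 3 were lower and 4 higher (23.1% and 19.4% of all genes tested). TMEM127, an adaptor that brings class I molecules to a ubiquitin ligase, had 24.4, 21.4 and 23.7 FPKM in BrM3-shAKR1B10 and 17.5, 18.2 and 18.4 in BrM3-shNC and rose by 0.36 (limma adjusted p = 0.0028). Its partners went apart, as SUSD6 rose by 0.25 (limma adjusted p = 0.0145) and the ligase WWP2 fell by 0.29 (limma adjusted p = 0.0046).

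MARCHF4, a membrane ubiquitin ligase that can take class I molecules off the surface, stood under the filter because the control level was low. It had 1.55, 1.68 and 1.41 FPKM in BrM3-shAKR1B10 and 0.221, 0.213 and 0.271 in BrM3-shNC. The mean was 6.59-fold higher in the silenced cells. With no filter the log2 fold change was 2.30 (95% interval 1.85 to 2.75, limma adjusted p = 7.0e-04).

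Over the 88 genes of the lists other than the 9 members, 64 were tested, of which 22 were lower and 12 higher at an adjusted p under 0.05, 3 were called lower and 1 called higher. Among all genes tested the shares were 23.1% lower and 19.4% higher, with 7.45% called lower and 5.83% called higher, so that, relative to all genes, more of the list genes were lower at an adjusted p alone, a like share was higher, and fewer were called in either direction. No test of these differences was run. Their median log2 fold change was -0.05.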

How the data were processed

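RNA from 3 BrM3-shAKR1B10 and 3 BrM3-shNC libraries was selected with poly-T beads and sequenced on Illumina NovaSeq as paired reads of 150 bases. The authors filtered the reads, aligned them with HISAT2 2.0.5 and counted them per gene with featureCounts 1.5.0-p3, and deposited FPKM values with gene lengths, replicates not pooled. All 58735 gene positions equal those of GENCODE 29 (GRCh38). Multiplying FPKM by length gave whole reads for 100% of values (within 0.05 read), and the library sizes behind the FPKM differ from the reads on genes, since the deposited values include a scaling between libraries. The floor of 3 reads covers counting error only.

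Groups and replicate numbers came from the sample labels. Values were compared on log2(FPKM + 0.1) over genes averaging at least 1 FPKM by limma (version 3.58.1, R 4.3.3; lmFit, then eBayes with a trend) and adjusted by Benjamini-Hochberg, since FPKM are not counts, where the paper ran DESeq2 on counts. Ratios were compared by exact permutation over libraries. Scripts were tested on simulated data. Alternatives were pseudocounts of 1 and 0.01, no filter, a mean FPKM of at least 5, TPM and quantile scaling, eBayes without a trend, voom on the recovered reads, a replicate block, each library left out, and, for ratios, reads without length and principal transcript lengths, the last chosen after seeing the data.

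The members and lists were chosen with earlier results of these data known. Named genes were every member, AKR1B10, PSMB8, PSMB9, every called gene of the lists and, in lists with fewer than 2 called genes, the 2 tested genes with the largest absolute fold change. COL1A1, EPCAM, KRT7, CDH1, EED, SUZ12, IRF2, IRF1, JAK2, SOCS1, GBP1, MICA, SUSD6, WWP2, MARCHF4 and PSMB8-AS1 were named after their values were seen. One gene covered by the rule is left unreported. In the table, 27 gene names turned into dates were resolved by gene identifier. Promoter windows were read from RefSeq (GRCh38.p14), and window sharing was computed over GENCODE 29 transcripts, in Python 3.11.15.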

Additional observations from a re-analysis of the deposited data

How the results depend on the processing

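TAP1, TAP2, NLRC5 and HLA-E stayed past the adjusted p in every alternative fit that tested them, and no direction reversed. With a pseudocount of 1, called members were 1 (TAP1), list genes called higher 0 and all genes called higher 497. With no filter, 3 members were lower past the adjusted p and 2 list genes called higher, MARCHF4 being tested. With a mean FPKM of at least 5, which leaves TAP1, TAP2 and NLRC5 untested, called members were 0, members lower past the adjusted p 2, list genes called higher 0, all genes called lower 532 and higher 290, and higher at an adjusted p alone 1689. Quantile scaling left 3 members lower past the adjusted p, and voom gave 2 higher (HLA-E and TAPBP). Leaving out libraries gave 3 to 4 members lower past the adjusted p, 3 without BrM3-shAKR1B10 replicate 3, and 1 to 2 list genes called higher, 2 without any one BrM3-shNC library. Of all genes past the adjusted p, 54.4% were lower (3044 lower, 2548 higher), and 44.0% with voom (2781 lower, 3537 higher).

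Same-numbered libraries did not deviate together (correlations -0.0155, 0.00388 and 0.00383). With the replicate block, 967 genes were called lower and 719 higher, 2 members stayed called and 4 were lower past the adjusted p. HLA-C (limma adjusted p = 0.0627) and PSMB9 (0.0589) then missed the threshold. The blocked exact sign-flip tests gave permutation p = 0.75 for the B2M ratio, 0.25 for the HLA-E share and 0.25 for the TAP1 to TAP2 ratio, and 0.25 is the smallest p that 3 pairs allow in this test. Depth limits HLA-B (31 to 73 reads) and HLA-F (11 to 26 reads).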
